A study of Mus musculus with 9 samples.

Results

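The genes described here are the 10 members of the BAFF, APRIL, and lymphotoxin axis, taken by symbol from the 31053 genes of the count matrix: the ligands *Tnfsf13b*, *Tnfsf13*, *Ltb*, *Lta*, and *Tnf*, and the receptors *Tnfrsf13c*, *Tnfrsf13b*, *Tnfrsf17*, *Ltbr*, and *Cd40*. All 10 are in the matrix, and no measured value entered the rule. Single cell RNA sequencing was performed on femur bone marrow of 9 female mice aged 9 to 10 weeks, with 1 library per mouse. There were 3 mice each of the New Zealand Black strain (NZB), the New Zealand White strain (NZW), and NZBWF1, the F1 hybrid of these inbred strains, which is used as a model of systemic lupus erythematosus. Both parents belong to the cross, so neither is a control strain from outside it, and a single age was sampled.

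These proteins belong to the tumor necrosis factor ligand and receptor families. BAFF, encoded by *Tnfsf13b*, keeps maturing and mature B cells alive through its receptor BAFF-R (*Tnfrsf13c*). It also binds TACI (*Tnfrsf13b*) and BCMA (*Tnfrsf17*), which are shared with APRIL (*Tnfsf13*), and BCMA is known for its part in the survival of plasma cells in bone marrow. Lymphotoxin beta (*Ltb*) is a membrane protein that holds lymphotoxin alpha (*Lta*), which is otherwise secreted, at the cell surface, and the complex signals through the lymphotoxin beta receptor (*Ltbr*), which organizes lymphoid tissue. CD40 (*Cd40*) receives help from T cells. BAFF-R, CD40, and the lymphotoxin beta receptor act on the noncanonical NF-kB route, which runs through the kinase NIK (*Map3k14*) and is held back by TRAF proteins. An excess of BAFF is known to break B cell tolerance in mice.

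After quality limits and removal of doublets, 36525 cells remained, with 2359 to 5217 cells and 7740014 to 16398499 UMIs per mouse. Cells were put into 19 classes by marker genes that include none of the 10 members, and 1886 cells stayed unassigned. The class names rest on RNA alone and are to be read as "like" (mature B-like cells, and so on). Every class had at least 1 of its own markers, or for B-lineage classes of the lineage, among its 10 genes of highest fold. In dividing pre-B-like cells this was *Vpreb3*, a B-lineage marker, and no marker of division. The classes were gated on these markers, so this does not test their names. The basophil or mast cell class also had 1 marker of another class there. Macrophage-like cells carried a high level of immature neutrophil markers as well. Of 38879 distinct barcode sequences among the barcodes kept, 170 occurred in more than 1 library. Levels are given as CPM, the UMIs of a gene per 1000000 UMIs of the class in a mouse, with mean ± SD over mice, and are compared between classes or strains, not between genes.

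BAFF-R, CD40, and BCMA transcripts were highest in B-lineage or plasma-like cells, *Tnfsf13b* in neutrophil-like cells, *Ltb* in lymphocytes, and *Ltbr* in monocyte-like cells. In all, 16548 UMIs of *Ltb* and 7757 of *Tnfrsf13b* were counted, while *Lta* had 52 and *Tnfsf13* 7.

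**Figure D1:**
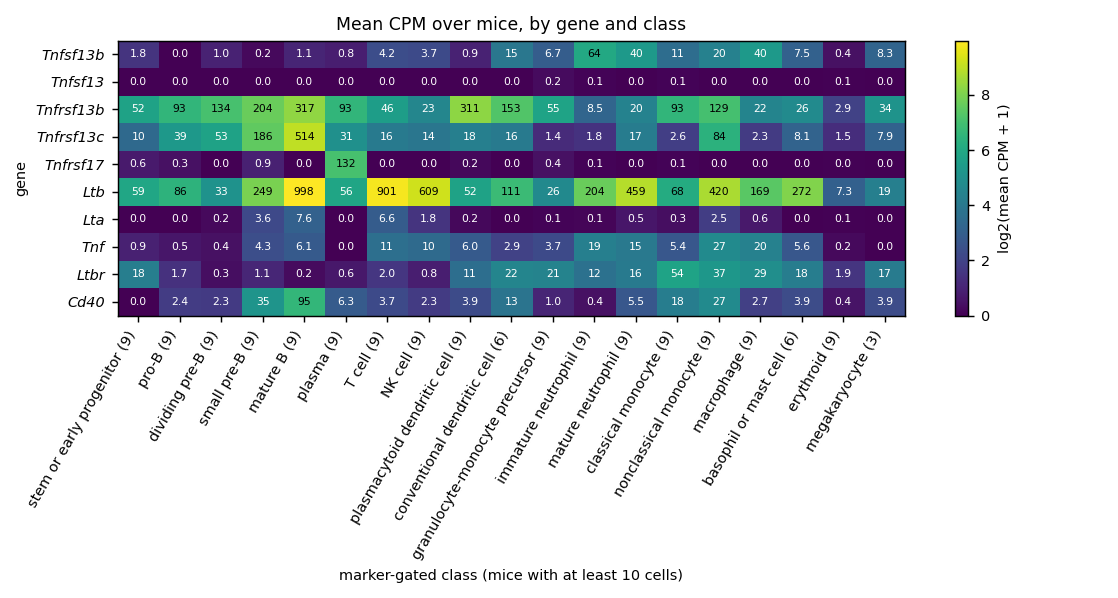
Mean CPM over mice (number in each box, color on a log2(mean CPM + 1) scale) of the 10 genes (rows) in 19 marker-gated classes (columns, with the number of mice that had at least 10 cells). *Tnfrsf17* averaged 132 CPM in plasma-like cells, and *Ltb* 998 in mature B-like cells.

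*Tnfsf13b*, the BAFF gene, lies at chr8:10006467-10039072 on the plus strand (GRCm38, GENCODE vM21). The 250 bases before its upstream start in RefSeq (GRCm38.p6, chr8:10006217-10006466) are shown because its strain difference held under every alternative run in immature neutrophil-like cells. Capitals mark AGGAAG, a core bound by ETS family factors, searched on both strands.
Tnfsf13b: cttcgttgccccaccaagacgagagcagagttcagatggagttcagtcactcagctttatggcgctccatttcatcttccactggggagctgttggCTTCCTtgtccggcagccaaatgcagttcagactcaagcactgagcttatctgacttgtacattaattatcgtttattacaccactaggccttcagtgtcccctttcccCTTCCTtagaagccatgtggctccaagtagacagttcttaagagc
The window holds 2 matches, both as the reverse complement, and no GGGA followed by any 4 bases and CC, a form of the NF-kB site. Of 32851 such windows over all genes, 29.5% hold AGGAAG and 17.6% hold this NF-kB form. The sequence is that of the reference genome and not of NZB or NZW mice.

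*Tnfsf13b* was chiefly a neutrophil transcript. Immature neutrophil-like cells had 63.8 ± 24.8 CPM (n = 9 mice), mature neutrophil-like cells 40.4 ± 21.5, and macrophage-like cells 40.1 ± 19.2. Macrophage-like cells also carried immature neutrophil markers, at a median level above that of mature neutrophil-like cells. The part of these markers' source in the macrophage-like level of *Tnfsf13b* was not tested. Classical monocyte-like cells had 10.7 ± 3.82 CPM and mature B-like cells 1.07 ± 2.06. Immature neutrophil-like cells held 69.9% ± 4.71 of the *Tnfsf13b* UMIs over all kept cells of a mouse. Mature cells were lower than immature cells in 9 of 9 mice, with a difference of -0.77 on the log2(CPM + 1) scale (SD 0.392, two-sided exact sign-flip permutation test over mice, p = 0.00391, the smallest it can give, adjusted p = 0.00846 over 13 class pairs). Among cells with at least 2000 UMIs the difference was -2.17 and did not pass (adjusted p = 0.153, exact permutation). Mature neutrophil-like cells were above macrophage-like cells in 6 of 9 mice, so these neighbors in level were not separated. Nonclassical and classical monocyte-like cells were not told apart (adjusted p = 0.754, exact permutation, difference -0.26, SD 2.57).

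Neutrophil-like cells of NZB mice had less *Tnfsf13b* than those of NZW and NZBWF1 mice. Immature cells had 32.6, 26.7, and 41.8 CPM in NZB, 86.4, 74.8, and 94.3 in NZW, and 84.2, 60.8, and 72.7 CPM in NZBWF1. All NZB mice were below all other mice, while NZW and NZBWF1 overlapped. By the edgeR quasi-likelihood test, adjusted over all genes tested in the class, the log2 fold change was -1.21 (SE 0.142, adjusted p = 4.45e-08) for NZB against NZW and 0.93 (SE 0.147, adjusted p = 3.45e-05) for NZBWF1 against NZB. Mature cells had 14.6, 9.31, and 23.1 CPM in NZB, 68.6, 67.7, and 48.2 in NZW, and 53.2, 39.9, and 38.6 in NZBWF1. Again the NZB mice lay below all others. Here the fold changes were -1.67 (SE 0.324, adjusted p = 0.00149) for NZB against NZW and 1.17 (SE 0.332, adjusted p = 0.0465) for NZBWF1 against NZB. NZBWF1 against NZW did not pass in immature (-0.28, adjusted p = 0.467) or mature cells (-0.50, SE 0.269). Classical monocyte-like cells did not have this order of strains, at 12.5, 8.37, and 12.2 CPM in NZB, 7.91, 6.03, and 6.01 in NZW, and 12.8, 17.3, and 13.2 in NZBWF1. There NZW was lowest and NZBWF1 highest, without overlap, and no comparison passed by edgeR (NZB against NZW 0.68, SE 0.356, adjusted p = 0.176, and NZBWF1 against NZW 1.16, SE 0.326, adjusted p = 0.0756).

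Both calls in immature cells held under 19 of 19 alternatives, and the NZB against NZW call in mature cells under 18 of 18. The NZBWF1 against NZB call in mature cells held under 9 of 18, and was lost (adjusted p in parentheses) without NZB mouse 1 (0.155), NZB mouse 2 (0.201), NZBWF1 mouse 1 (0.158), NZBWF1 mouse 2 (0.0834), NZBWF1 mouse 3 (0.0888), or NZW mouse 3 (0.0528). Only losses without a single mouse are named here, and the 18 alternatives also include changes of processing. In the immature class, 7 T cell markers summed to 5.08 to 8.93 CPM in NZB, 126 to 173 in NZW, and 78.9 to 85.5 in NZBWF1. *Cd3d* alone made up 4.69 to 6.31, 123 to 171, and 75.8 to 83.7 of these, while *Cd3e* was at 0 in every NZW mouse. In the mature class the B-lineage markers summed to 6.49 to 289 CPM in NZB and 313 to 1654 in NZW, and the immature neutrophil markers to 87957 to 95752 and 66615 to 84443. Their part in the result was not tested.

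**Figure D2:**
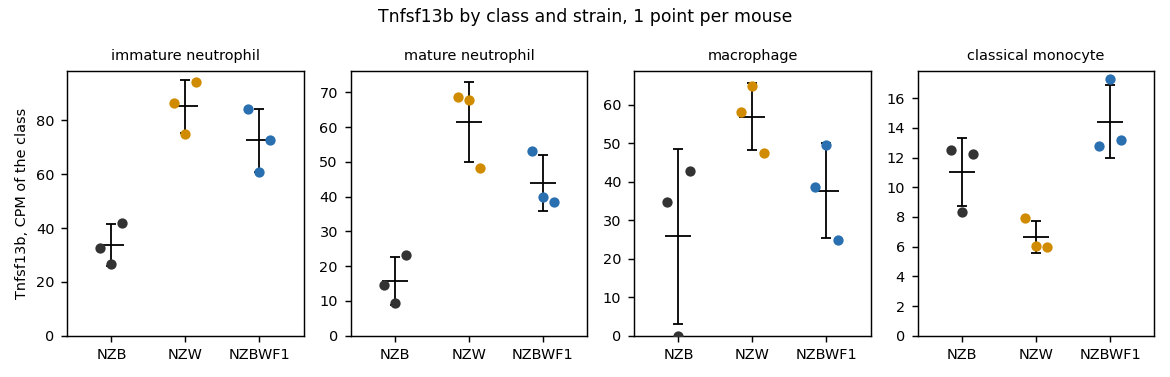
*Tnfsf13b* in CPM of the class (y axes from 0) in 4 classes, 1 point per mouse, with the mean and SD of 3 mice. In both neutrophil classes the NZB mice sit below all other mice, with means of 33.7 ± 7.62 (immature) and 15.7 ± 6.95 (mature).

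*Tnfsf13*, the APRIL gene, was hardly counted, with 7 UMIs from 5 mice. *Tnfsf13* lies at chr11:69682846-69685784 on the minus strand, inside *Tnfsfm13*, a gene model on the same strand that also covers *Tnfsf12* (TWEAK). How reads shared by these models were counted is not known here, so the levels of all 3 genes are uncertain. The low count does not show that *Tnfsf13* RNA is rare in marrow. *Tnfsfm13* had 102 UMIs and *Tnfsf12* had 503. Granulocyte-monocyte precursor-like cells, the class of highest mean, had 0.234 ± 0.497 CPM of *Tnfsf13* from 3 UMIs, with 0, 0, and 0.702 in NZB, 1.41, 0, and 0 in NZW, and 0, 0, and 0 in NZBWF1. No class had enough *Tnfsf13* counts for a strain test, and a difference between classical monocyte-like and granulocyte-monocyte precursor-like cells was not detectable (adjusted p = 0.754, exact permutation).

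*Tnfrsf13c*, the BAFF-R gene, lies at chr15:82221743-82224369 on the minus strand. Its upstream 250 bases (RefSeq, GRCm38.p6, chr15:82224381-82224630) are printed because it is the B-cell receptor of this set with a strain call in mature B-like cells. Neither motif occurs in this window.
Tnfrsf13c: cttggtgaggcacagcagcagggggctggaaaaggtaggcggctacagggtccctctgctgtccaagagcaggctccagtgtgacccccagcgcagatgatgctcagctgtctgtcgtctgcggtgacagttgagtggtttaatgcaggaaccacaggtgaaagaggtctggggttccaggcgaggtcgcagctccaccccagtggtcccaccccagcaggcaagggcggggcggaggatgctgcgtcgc
*Tnfrsf13c* was low early in the B lineage, with 38.6 ± 17 CPM in pro-B-like and 52.7 ± 25.4 in dividing pre-B-like cells, and higher in small pre-B-like (186 ± 67.7) and mature B-like cells (514 ± 136, n = 9). Plasma-like cells had 31.1 ± 15.5. Mature B-like cells exceeded small pre-B-like cells in 8 of 9 mice (log2 difference 1.52, SD 0.807, exact permutation, adjusted p = 0.0145) and plasma-like cells in 9 of 9 (4.10, SD 0.796, exact permutation, adjusted p = 0.00846).

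In mature B-like cells *Tnfrsf13c* was lower in NZB mice. The values were 449, 356, and 267 CPM in NZB, 665, 483, and 637 in NZW, and 637, 569, and 558 in NZBWF1. Every NZB mouse was below every mouse of the other groups. The log2 fold change of NZB against NZW was -0.65 (SE 0.178, adjusted p = 0.025), and that of NZBWF1 against NZB, 0.58 (SE 0.181), did not pass (adjusted p = 0.0602). The first held under 14 of 19 alternatives. It was lost without NZB mouse 3 (0.273), NZW mouse 1 (0.142), or NZW mouse 3 (0.0856). At 2000 UMIs per cell it was -0.61 (adjusted p = 0.44), and with cells down to 500 UMIs it was -0.24 (adjusted p = 0.283). The 8 B-lineage markers of the class moved the same way, with 7148 to 9522 CPM in NZB, 11492 to 12585 in NZW, and 11717 to 13908 in NZBWF1, and their part in the result was not tested.

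*Tnfrsf13b*, the TACI gene (chr11:61126755-61149372), was highest in mature B-like and plasmacytoid dendritic-like cells and was found in myeloid cells too. Mature B-like cells had 317 ± 87 CPM and plasmacytoid dendritic-like cells 311 ± 32.5, with the first higher in 6 of 9 mice. Small pre-B-like cells followed at 204 ± 37.5, below plasmacytoid dendritic-like cells in 9 of 9 mice. Conventional dendritic-like cells had 153 ± 93.4 CPM (n = 6 mice), nonclassical monocyte-like cells 129 ± 63.3, and granulocyte-monocyte precursor-like cells 54.6 ± 5.52. Classical monocyte-like cells had 93.4 ± 11.1 CPM, with 1127 UMIs beside 1140 in mature B-like cells. Plasma-like cells had 93.4 ± 27.8 CPM. Mature B-like cells exceeded small pre-B-like cells in 7 of 9 (difference 0.59, SD 0.662, exact permutation, adjusted p = 0.0451), which was lost without NZB mouse 1 (0.0609), NZBWF1 mouse 1 (0.0903), NZBWF1 mouse 2 (0.0903), NZBWF1 mouse 3 (0.0677), NZW mouse 1 (0.0903), NZW mouse 2 (0.0903), or NZW mouse 3 (0.0903). Of the *Tnfrsf13b* UMIs, plasmacytoid dendritic-like cells held 39% ± 4.16 in NZB, 10.9% ± 0.853 in NZW, and 19.8% ± 2.0 in NZBWF1. Shares of cells in that class moved alike, at 13.3% ± 1.87, 3.84% ± 0.47, and 6.75% ± 1.7. Within the class the level was 302 ± 16.4 CPM in NZB, 293 ± 25 in NZW, and 339.7 ± 38.4 in NZBWF1 (n = 3 each). *Tnfrsf13b* was tested in 11 classes and passed in none; in mature B-like cells it was at 308, 138, and 210.1 CPM in NZB, 355, 378, and 337 in NZW, and 402, 369, and 355 in NZBWF1 (NZB against NZW -0.56, edgeR adjusted p = 0.108).

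*Tnfrsf17*, the BCMA gene (chr16:11313812-11320074), was the most restricted of the well-detected members. Plasma-like cells had 132 ± 25.9 CPM (90.8 to 177 over 9 mice) and held 94.9% ± 5.48 of its UMIs. No UMI was counted in 2197 mature B-like or 2129 dividing pre-B-like cells. Against a floor of 3 counts over all mice, the pooled level of 135 CPM in plasma-like cells was at least 147-fold higher than in mature B-like cells and at least 301-fold higher than in dividing pre-B-like cells, where the floor covers counting error only. Plasma-like cells were above mature B-like cells in 9 of 9 mice (exact permutation, adjusted p = 0.00846). By strain, plasma-like cells had 156, 114, and 123 CPM in NZB, 117, 134, and 177 in NZW, and 90.8, 124, and 152 in NZBWF1. The groups overlapped, and no comparison passed.

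**Figure D3:**
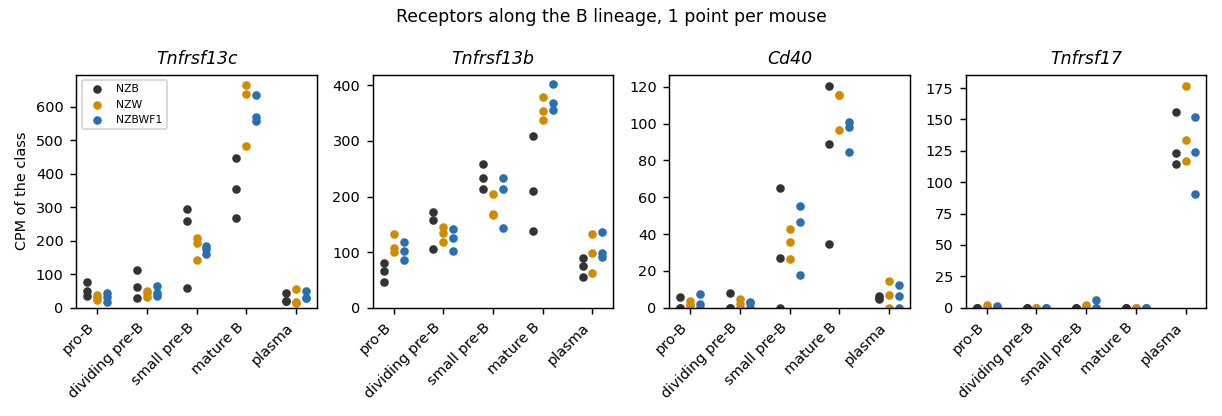
*Tnfrsf13c*, *Tnfrsf13b*, *Cd40*, and *Tnfrsf17* in CPM of the class (y axes from 0) in 5 classes of the B lineage, 1 point per mouse, colored by strain. Mature B-like cells are highest for *Tnfrsf13c* and *Cd40*, with NZB means of 358 ± 90.8 for *Tnfrsf13c*, and *Tnfrsf17* appears in plasma-like cells.

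*Cd40* (chr2:165055627-165072948), the receptor of T cell help, was also highest in mature B-like cells, at 95.1 ± 25.9 CPM against 35.1 ± 19.8 in small pre-B-like cells. The difference of 1.86 (SD 1.33) was seen in 9 of 9 mice (exact permutation, adjusted p = 0.00846), and at 2000 UMIs per cell it was 1.66 and did not pass (adjusted p = 0.0859). Classical monocyte-like cells had 17.6 ± 9.94 CPM, and there the strains differed. The values were 11.2, 9.48, and 8.15 CPM in NZB, 17.4, 39.2, and 26.4 in NZW, and 11.2, 20.2, and 15.4 in NZBWF1. All NZB mice were below all NZW mice, and NZBWF1 overlapped both. The log2 fold change of NZB against NZW was -1.55 (SE 0.301, adjusted p = 0.000234) by edgeR and held under 19 of 19 alternatives. In this class the 7 conventional dendritic cell markers summed to 24.5 to 28.5 CPM in NZB and 43.5 to 78.9 in NZW, the plasmacytoid dendritic cell markers to 123 to 174 and 215 to 262, the nonclassical monocyte markers to 290.4 to 309 and 415 to 477, the classical monocyte markers to 5952 to 6970.4 and 7189.6 to 7539, and the granulocyte-monocyte precursor markers to 1371 to 2077 and 939 to 1209. Their part in the result was not tested. Mature B-like cells had no strain call, with 121, 34.5, and 89.1 CPM in the NZB, 116, 96.7, and 116 in the NZW, and 101, 84.5, and 98 in the NZBWF1 mice.

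*Ltb*, *Tnf*, and *Lta* are neighbors on chromosome 17, at chr17:35194439-35196320 (plus strand), chr17:35199381-35202007 (minus), and chr17:35203165-35205351 (minus), with 3060 bases between *Ltb* and *Tnf* and 1157 between *Tnf* and *Lta*. The 250 bases before the RefSeq start of *Ltb* (GRCm38.p6, chr17:35194257-35194506) are given because *Ltb* is the member called in the most classes. The RefSeq start lies downstream of the GENCODE start, so the end of this window is inside the span given above. Capitals mark AGGAAG (2 matches, as printed) and the NF-kB form (1 match, as the reverse complement), which do not overlap.
Ltb: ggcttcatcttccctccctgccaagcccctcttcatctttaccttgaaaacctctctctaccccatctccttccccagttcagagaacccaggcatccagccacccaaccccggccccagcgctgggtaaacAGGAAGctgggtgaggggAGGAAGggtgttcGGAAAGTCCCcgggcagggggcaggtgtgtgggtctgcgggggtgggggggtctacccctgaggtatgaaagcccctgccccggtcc
Of the 9 members found in the promoter table, 4 hold AGGAAG and 2 hold this NF-kB form (*Ltb* and *Tnfrsf13b*). These are letters in the reference genome, not measured binding.

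*Ltb* was highest in lymphocytes. Mature B-like cells had 998 ± 311 CPM and T cell-like cells 901 ± 123, with the first higher in 5 of 9 mice. NK cell-like cells had 609 ± 187, below T cell-like cells in 8 of 9 (difference of T minus NK 0.61, SD 0.44, exact permutation, adjusted p = 0.019). Myeloid cells carried it too, with 459 ± 60.1 CPM in mature neutrophil-like, 420.3 ± 139.8 in nonclassical monocyte-like, and 204 ± 20.1 in immature neutrophil-like cells. By number, immature neutrophil-like cells held 31% ± 6.65 of the *Ltb* UMIs, mature B-like cells 17.3% ± 6.6, and mature neutrophil-like cells 14.3% ± 2.64. Erythroid-like cells, which should lack the gene, had 7.33 ± 3.06 CPM, and RNA from barcodes under 100 UMIs had 107 to 232. The median depth of erythroid-like cells was 9173 UMIs, beside 2071 in classical monocyte-like and 1268 in mature B-like cells. Their level is therefore not a floor for classes of lower depth. Mature B-like cells exceeded small pre-B-like cells in 9 of 9 mice (2.34, SD 0.90, exact permutation, adjusted p = 0.00846).

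*Ltb* was higher in NZB than in NZW mice in 4 classes. Mature B-like cells had 1481, 931, and 1547 CPM in NZB, 932, 683, and 718 in NZW, and 825, 1018, and 849 in NZBWF1. NZB mouse 2 fell among the other groups, and the other NZB mice were above all of them. The log2 fold change was 0.87 (SE 0.166, adjusted p = 0.00101) for NZB against NZW, held under 19 of 19 alternatives, and -0.72 (SE 0.167, adjusted p = 0.00757) for NZBWF1 against NZB, held under 14 of 19. The second was lost without NZB mouse 1 (0.0821), NZB mouse 3 (0.124), NZBWF1 mouse 1 (0.0991), or NZBWF1 mouse 3 (0.052), and at 2000 UMIs per cell (adjusted p = 0.185). NK cell markers in the class were 12.7 to 207 CPM in NZB and 3.92 to 10.3 in NZW, and B-lineage markers were lower in NZB, as given above; their part was not tested.

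NK cell-like cells had 973, 722, and 755 CPM in NZB, 479.9, 390.2, and 424 in NZW, and 669.6, 521, and 547 in NZBWF1. Each NZB mouse was above each NZBWF1 mouse, and each NZBWF1 mouse above each NZW mouse. NZB against NZW was 0.91 (SE 0.176, adjusted p = 0.0006), while NZBWF1 passed against neither NZB (adjusted p = 0.188) nor NZW (adjusted p = 0.643) by edgeR. The call held under 18 of 19 alternatives, and at 2000 UMIs per cell it was 0.61 and did not pass (adjusted p = 0.513). The 7 T cell markers in this class summed to 801 to 949 CPM in NZB and 560.2 to 765 in NZW, and the NK markers to 7872 to 11543 and 11812 to 13647; their part was not tested. T cell-like cells themselves had 911 ± 231, 892 ± 38.3, and 899.7 ± 74.5 CPM of *Ltb* in NZB, NZW, and NZBWF1, with no call. Plasmacytoid dendritic-like cells had 72.4, 53.5, and 83 CPM in NZB and 44.8, 38.3, and 32.6 in NZW, without overlap (0.88, SE 0.254, adjusted p = 0.0155). That call held under 14 of 19 alternatives and was lost without NZB mouse 3 (0.0874), NZW mouse 2 (0.0633), or NZW mouse 3 (0.138), by DESeq2 (adjusted p = 0.126), and at 2000 UMIs (0.258). Mature B-stage markers in the class were 355 to 436 CPM in NZB and 819 to 944 in NZW.

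Small pre-B-like cells also had more *Ltb* in NZB than in NZW, on few cells. NZB mice had 227, 526, and 723 CPM from 26, 24, and 24 cells, NZW mice 79.9, 194, and 109.5 CPM, and NZBWF1 mice 117, 131, and 136 CPM. All NZB mice were above all others. The log2 fold change was 2.03 (SE 0.373, adjusted p = 0.00355) for NZB against NZW and -1.98 (SE 0.37, adjusted p = 0.0143) for NZBWF1 against NZB. With classes taken from clusters instead of marker scores, the values became -0.27 and 0.01 (adjusted p = 0.979 and 0.998), so these differences depend on how the class is drawn. The first was lost without NZB mouse 2 (0.144) or NZB mouse 3 (0.124), and the second without NZB mouse 2 (0.353), NZB mouse 3 (0.316), NZBWF1 mouse 1 (0.157), or NZBWF1 mouse 3 (0.0827). In plasma-like cells NZBWF1 was lower than NZB, with 15.1, 40.8, and 10.4 against 156, 39.9, and 61.7 CPM, overlapping (-1.94, SE 0.42, adjusted p = 0.0383). That call held under 8 of 19 alternatives and was lost without NZB mouse 1 (0.0537), NZB mouse 3 (0.133), NZBWF1 mouse 3 (0.15), NZW mouse 2 (0.0771), or NZW mouse 3 (0.0699). Changes of processing lost it too, with adjusted p up to 0.816 (edgeR or DESeq2).

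The direction was opposite in stem or early progenitor-like cells. They had 31.9, 60.8, and 13.2 CPM of *Ltb* in NZB, 74, 122, and 120.0 in NZW, and 23.6, 38.4, and 46.5 in NZBWF1. Every NZW mouse was above every other mouse. The log2 fold change was -1.51 (SE 0.325, adjusted p = 0.000551) for NZB against NZW and -1.55 (SE 0.325, adjusted p = 0.0013) for NZBWF1 against NZW. The first ranged from -2.28 to -1.14 without each mouse, the largest size being that without NZB mouse 2. It was lost without NZB mouse 3 (0.0599) and the second without NZW mouse 2 (0.0517), and neither passed by DESeq2 (adjusted p = 0.116 and 0.413) or with the stricter gate (0.0787 and 0.232). The 8 B-lineage markers in this class summed to 137 to 141 CPM in NZB, 216 to 579.9 in NZW, and 266 to 391 in NZBWF1, and the markers of the class itself to 1097 to 1287, 1469.5 to 1534, and 1219 to 1546. Their part was not tested.

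Classical monocyte-like cells were the class in which *Ltb* of the hybrid differed from the mean of both parents. The values were 74.9, 40.7, and 67.2 CPM in NZB, 52.2, 49.4, and 60.1 in NZW, and 78.4, 99.6, and 93.9 in NZBWF1. All 3 NZBWF1 mice were above all 6 parents. The log2 difference was 0.71 (SE 0.143, adjusted p = 0.00392) against the parental mean of log values, 0.66 (SE 0.171, adjusted p = 0.00668) against NZB, and 0.76 (SE 0.164, adjusted p = 0.00951) against NZW. These calls held under 17, 15, and 13 of 19 alternatives. Over all genes tested in this class, 2.85% were called against the parental mean, the largest share of any single class. Against NZB and NZW the shares were 16.4% and 1.11%. The first was lost without NZBWF1 mouse 2 (0.11), the second without NZB mouse 2 (0.202) or NZBWF1 mouse 2 (0.0716), with a value of 0.36 without NZB mouse 2, and the third without NZBWF1 mouse 2 (0.14), NZBWF1 mouse 3 (0.0724), NZW mouse 1 (0.0565), or NZW mouse 2 (0.0873). DESeq2 did not keep the third either. Among cells with at least 2000 UMIs none of them passed (0.58, 0.33, and 0.84). Macrophage markers in the class summed to 20.1 to 38.7 CPM in NZB, 29.3 to 43.4 in NZW, and 63.1 to 65.6 in NZBWF1, and nonclassical monocyte markers to 290.4 to 309, 415 to 477, and 438 to 477; their part was not tested.

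**Figure D4:**
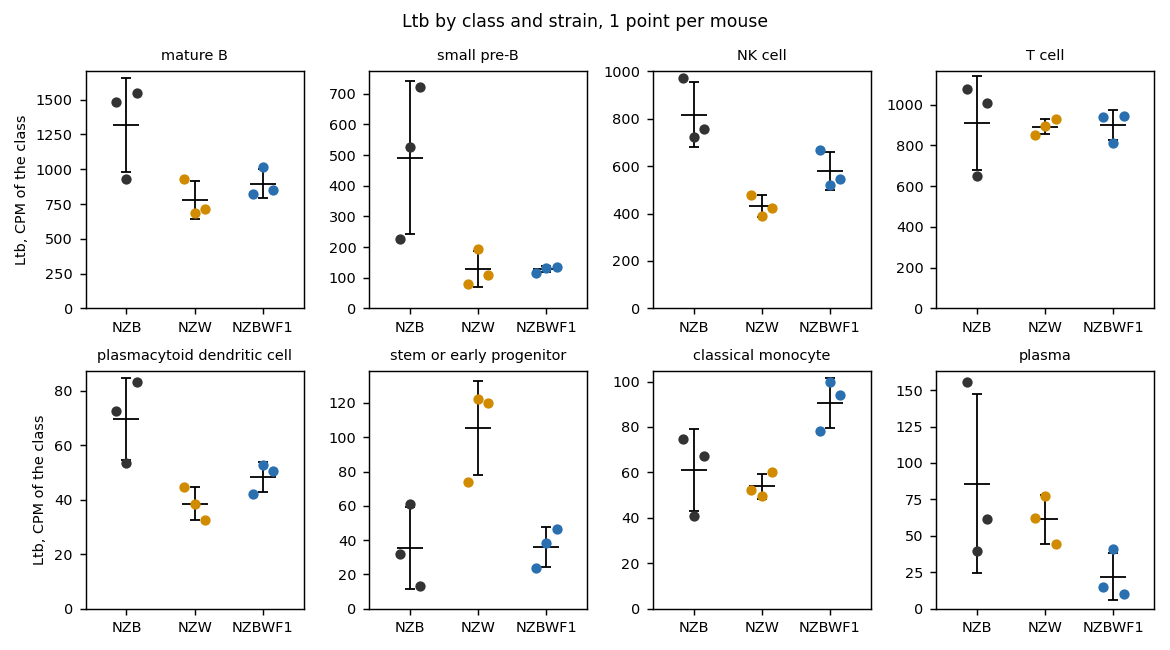
*Ltb* in CPM of the class (y axes from 0, scales differ) in 8 classes, 1 point per mouse, with the mean and SD of 3 mice. The highest mean is that of NZB in mature B-like cells (1319.5 ± 338), of NZW in stem or early progenitor-like cells (105 ± 27.2), and of NZBWF1 in classical monocyte-like cells (90.6 ± 11).

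*Lta*, the partner of *Ltb*, had 52 UMIs, of which mature B-like cells held 24. Their level was 7.64 ± 4.46 CPM, with 0, 11.5, and 6.37 in NZB, 4.51, 12.3, and 7.85 in NZW, and 9.4, 13.3, and 3.5 in NZBWF1, which overlapped. The difference from small pre-B-like cells did not pass (adjusted p = 0.0609, exact permutation). *Ltbr*, the receptor (chr6:125306571-125313885), was found in classical monocyte-like cells at 53.8 ± 8.19 CPM (41.2 to 68), in macrophage-like cells at 29.2 ± 8.97, and in granulocyte-monocyte precursor-like cells at 20.7 ± 5.78, while mature B-like cells had 1 UMI. Classical monocyte-like cells exceeded mature B-like cells in 9 of 9 mice (5.59, SD 0.608, exact permutation, adjusted p = 0.00846). *Ltbr* was tested in 4 classes and had no strain call, with 41.2, 68, and 63.2 CPM for NZB, 50.6, 48.2, and 48.7 for NZW, and 54.4, 52.4, and 58 for NZBWF1 in classical monocyte-like cells.

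*Tnf*, an inflammatory cytokine, was low. Immature neutrophil-like cells had 18.6 ± 5.34 CPM and held 53% ± 8.93 of its UMIs. Nonclassical monocyte-like cells had 26.6 ± 34.9 CPM from 12 UMIs, with 19, 0, and 22.6 in NZB, 101, 0, and 62.1 in NZW, and 35, 0, and 0 in NZBWF1. The groups overlapped, with mice at 0 in each. This class was not told apart from classical monocyte-like cells (adjusted p = 0.725, exact permutation). Immature neutrophil-like cells had 16.3, 12.8, and 9.38 CPM in NZB, 18.7, 21.3, and 20.4 in NZW, and 27.7, 22, and 19 in NZBWF1. NZBWF1 lay above NZB without overlap (0.66, SE 0.206, adjusted p = 0.0485, edgeR), but only 6 of 19 alternatives kept the call. It was lost without NZB mouse 2 (0.139), NZB mouse 3 (0.263), NZBWF1 mouse 1 (0.139), NZBWF1 mouse 2 (0.133), NZW mouse 1 (0.057), NZW mouse 2 (0.0574), or NZW mouse 3 (0.0635). Some changes of processing lost it as well.

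Over the 16 classes with enough mice, 8 of the 10 members could be tested somewhere, from *Tnfrsf17* in 1 class to *Ltb* in 16, which gave 47 tests per comparison. *Tnfsf13* and *Lta* entered none. For NZB against NZW, 9 were called, 4 higher and 5 lower in NZB (19.1%), where 8.44% of 85051 tests over all genes were called. NZBWF1 against NZB had 7 calls (14.9%, background 3.58%). NZBWF1 against NZW had 2 (4.26%, background 1.18%), and NZBWF1 against the parental mean of log values had 1 (2.13%, background 0.586%), all of them *Ltb*. The median size of the log2 fold change over the members' tests was 0.49, 0.36, 0.21, and 0.26 in the order of these comparisons, and over all genes tested 0.26, 0.23, 0.17, and 0.16. The filter on low counts decided in which classes a member was tested, and the tests of 1 gene in several classes share the same mice, as do the comparisons.

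Other genes of the pathway were read from a list of 36 ligands, receptors, TRAF proteins, and NF-kB proteins. For NZB against NZW, 20 of 267 tests were called (7.49%, where 8.44% of the tests over all genes were called), 10 higher and 10 lower, with a median log2 fold change of 0.05 beside -0.01 over all genes tested. Classical monocyte-like cells held 10 of these calls, 3 higher and 7 lower among 31 genes (32.3%), in a class where 23.3% of all genes tested were called. *Bcl3*, a nuclear partner of NF-kB p50 and p52, was higher in NZB in 4 myeloid classes. In mature neutrophil-like cells it had 39 ± 3.03 CPM in NZB, 15 ± 3.4 in NZW, and 16.2 ± 6.35 in NZBWF1 (1.65, SE 0.36, adjusted p = 0.00414). *Ikbkb*, a kinase of the canonical route, was lower in NZB in classical monocyte-like cells (-0.52, SE 0.108, adjusted p = 0.000511) and granulocyte-monocyte precursor-like cells (-0.84, SE 0.162, adjusted p = 0.000205). *Rel*, an NF-kB subunit, was lower in NZB in classical monocyte-like cells (-0.48, SE 0.127, adjusted p = 0.00467) and higher in plasmacytoid dendritic-like cells (0.92, SE 0.237, adjusted p = 0.00591).

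*Tnfsf12* was higher in NZB in classical monocyte-like (0.96, SE 0.249, adjusted p = 0.00437) and precursor-like cells (1.69, SE 0.453, adjusted p = 0.00868), with the uncertainty of its locus given above. In classical monocyte-like cells of NZB, *Tnfrsf1b*, a TNF receptor, was lower (-0.71, SE 0.166, adjusted p = 0.00197), and *Tnfsf14* (LIGHT, another ligand of the lymphotoxin beta receptor) was higher (1.69, SE 0.432, adjusted p = 0.00377). NZBWF1 against NZB had 7 calls (2.62%, background 3.58%), 6 of them among the 31 genes tested in classical monocyte-like cells (19.4%), where 16.4% of all genes were called. *Map3k14*, which encodes NIK, had 18.6 ± 3.64 CPM there in NZB, 29.7 ± 3.8 in NZW, and 35.4 ± 5.01 in NZBWF1. NZBWF1 against NZB was 0.93 (SE 0.226, edgeR adjusted p = 0.00368). *Nfkb1* (0.42, SE 0.109, edgeR adjusted p = 0.00587) and *Tnfrsf1b* (0.79, SE 0.17, adjusted p = 0.00145) were higher and *Bcl3* lower (-1.91, SE 0.372, adjusted p = 0.00803) in NZBWF1 than in NZB. Mean levels of these genes there were 223, 95.7, and 28.6 CPM in NZW, beside 235, 104, and 24.6 in NZBWF1. Against NZW the 2 calls (0.749%, background 1.18%) were *Ikbkb* in precursor-like cells (-0.62, SE 0.163, adjusted p = 0.0431) and *Nfkbia* in dividing pre-B-like cells (0.50, SE 0.124, adjusted p = 0.0238). Against the mean of the parents' logs edgeR made 0 calls (background 0.586%), with 18 of 267 tests at an unadjusted p under 0.05, where 7.53% of the tests over all genes were.

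With all kept cells of a mouse summed, 8 members could be tested. NZB was lower than NZW in 3 (background 18.7% of 12472 genes), and NZBWF1 was higher than NZB in 3 (background 10.8%). NZBWF1 had 0 edgeR calls against NZW (background 2.13%) and 0 against the parental mean of log values (background 0.954%), with 1 and 2 of the 8 members at an unadjusted p under 0.05 (over all genes 13% and 14.6%) and 1 call each by DESeq2 (over all genes 3.18% and 2.1%). *Tnfrsf13c* was at 14.3, 7.05, and 10.6 CPM in NZB, 52, 30.7, and 34.6 in NZW, and 51.3, 19.8, and 40.7 in NZBWF1. Its fold changes were -1.83 (SE 0.431, adjusted p = 0.024) for NZB against NZW and 1.70 (SE 0.434, adjusted p = 0.0476) for NZBWF1 against NZB. *Cd40* was at 4.72, 3.39, and 3.41 CPM in NZB, 10.2, 9.85, and 10.1 in NZW, and 8.79, 5.17, and 9.21 in NZBWF1, with -1.32 (SE 0.222, adjusted p = 0.000923) and 0.90 (SE 0.228, adjusted p = 0.0233). *Tnfsf13b* was at 11.6, 9.33, and 14.3 CPM in NZB, 29.8, 20.8, and 26.3 in NZW, and 27.4, 19.1, and 18.3 in NZBWF1, with -1.05 (SE 0.193, adjusted p = 0.00255) and 0.75 (SE 0.196, adjusted p = 0.031). For all 3 genes, which are those called above, every NZB mouse was below every other mouse. The share of all genes with such a separation was not counted.

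In such a sum, fewer cells of a type and less RNA per cell cannot be told apart. Of the cells of NZB, NZW, and NZBWF1 mice, 2.82% ± 1.48, 8.3% ± 2.59, and 7.66% ± 4.91 were mature B-like, and 0.791% ± 0.30, 5.3% ± 2.71, and 5.77% ± 3.25 were small pre-B-like. For *Tnfrsf13c* the NZB against NZW value was -1.83 in the sum and -0.65 within mature B-like cells. Immature neutrophil-like cells were 26.6% ± 3.23 of cells in NZB and 24.4% ± 1.18 in NZW, and for *Tnfsf13b* the value was -1.05 in the sum and -1.21 within them. The NZB against NZW calls in the sum held under 12 of 16 alternatives for *Tnfrsf13c*, 15 of 16 for *Cd40*, and 15 of 16 for *Tnfsf13b*. That of *Tnfrsf13c* was lost without NZB mouse 2 (0.0838), NZB mouse 3 (0.0601), or NZW mouse 1 (0.0604). Among cells with at least 2000 UMIs the other two did not pass, at -0.64 (adjusted p = 0.0958) for *Cd40* and -0.52 (adjusted p = 0.322) for *Tnfsf13b*. The NZBWF1 against NZB calls held under 5 of 16, 11 of 16, and 9 of 16, in the same order of genes. That of *Tnfrsf13c* was lost without NZB mouse 1 (0.0609), NZB mouse 2 (0.154), NZB mouse 3 (0.109), NZBWF1 mouse 1 (0.111), NZBWF1 mouse 3 (0.119), NZW mouse 2 (0.0657), or NZW mouse 3 (0.0688), and with cells down to 500 UMIs (adjusted p = 0.069). That of *Cd40* was lost without NZB mouse 2 (0.115), NZB mouse 3 (0.090), NZBWF1 mouse 1 (0.0667), or NZBWF1 mouse 3 (0.114), and at 2000 UMIs, where it was 0.24 (adjusted p = 0.621). For *Tnfsf13b* it was lost without NZB mouse 1 (0.0818), NZB mouse 2 (0.142), NZBWF1 mouse 1 (0.0977), NZBWF1 mouse 3 (0.0512), or NZW mouse 3 (0.051), and was 0.64 (adjusted p = 0.267) at 2000 UMIs and 0.68 (adjusted p = 0.0929) at 500.

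**Figure D5:**
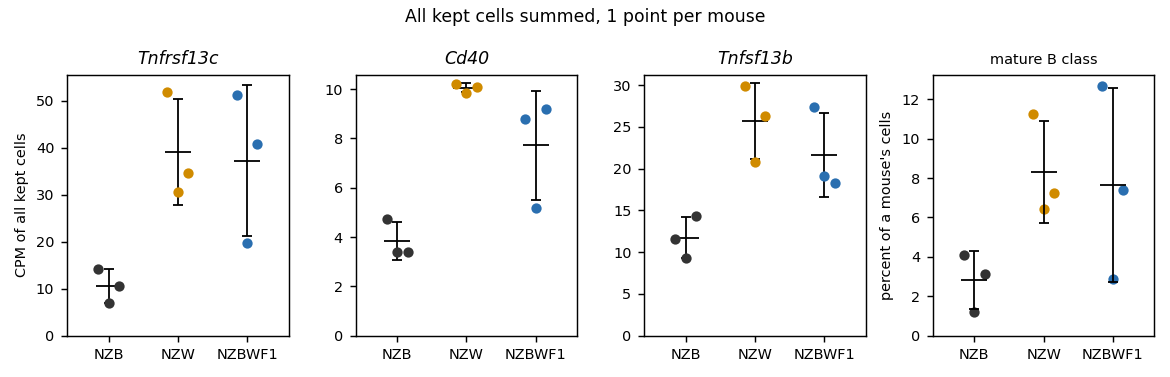
CPM of *Tnfrsf13c*, *Cd40*, and *Tnfsf13b* in all kept cells of a mouse (first 3 panels) and the percent of its cells in the mature B-like class (last panel), 1 point per mouse with the mean and SD of 3 mice; y axes start at 0. NZB mice are below all others for the 3 genes, and their mature B-like share is 2.82% ± 1.48.

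*Tnfrsf17* in the sum had no call (NZBWF1 against NZW 2.14, SE 0.539, edgeR adjusted p = 0.0971). Its UMIs, not scaled to depth, were 125 in NZB, 64 in NZW, and 294 in NZBWF1, where 1 mouse held 192. Plasma-like shares in the same order were 1.28% ± 0.227, 0.527% ± 0.107, and 1.59% ± 0.748. The NZBWF1 mice had 20, 86, and 120 plasma-like cells. *Ltb* in the sum also had no call for NZB against NZW (0.17, SE 0.272, adjusted p = 0.734). Across 18 classes, the genes whose mean log2(CPM + 1) was most like that of *Tnfsf13b* were *Pi16* (0.96), *Clec4a2* (0.947), and *Pram1* (0.939), with Pearson's r in parentheses. For *Tnfrsf13c* they were *Cd79b* (0.923), *Cd79a* (0.92), and *Ms4a1* (0.918), which were also gating markers of the B lineage. Those for *Tnfrsf13b* were *Abhd17b* (0.903), *Arhgap17* (0.879), and *Mef2c* (0.874), and those for *Ltb* *Kif21b* (0.876), *Dennd1c* (0.866), and *Rhof* (0.849). *Ltbr* was most like *Pak1* (0.916), *Card9* (0.914), and *Hexa* (0.911), *Cd40* most like *Lmbrd1* (0.869), *Mcl1* (0.836), and *Bank1* (0.83), and *Tnf* most like *G0s2* (0.917), *Slc35d2* (0.901), and *Nod1* (0.90). *Tnfrsf17* was most like *Igkv20-101-2* (0.995), *Cldn7* (0.988), and *Ighg2c* (0.982), and *Lta*, on 52 UMIs, most like *Cxcr5* (0.943), *Egr3* (0.924), and *Ephx1* (0.875). The 7 UMIs of *Tnfsf13* gave *Dmkn* (0.877), *Elane* (0.812), and *Nrg1* (0.715). The classes share libraries and differ in depth, 9466 genes were searched, and the correlations are a description with no test.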

How the data were processed

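The deposited file is a matrix of UMI counts per gene and barcode, made by the authors with Chromium 3' v3.1 libraries. The submitters' processing notes name bcl2fastq 2.20, Cell Ranger 3.1.0, and mm10. The sources used here do not state whether depth was equalized in merging the libraries. Barcode suffixes were assigned to mice by the line order of the deposited list of libraries, which the sources do not state outright. Reads of NZB and NZW alleles were counted against the reference genome, and the effect of strain sequence differences on counting was not tested.

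Of 68444 barcodes, 39051 had at least 1000 UMIs, 500 genes, and at most 10% mitochondrial UMIs, and 36525 remained after removal of doublets by a score against simulated doublets (0.8% per 1000 barcodes). Median depth per kept barcode was 2182 to 2536 UMIs by mouse. Lineages were gated by marker scores (minimum 0.3, margin 0.1, at least 2 markers detected). Each B-lineage cell was then put into the stage of its highest stage score, with no margin or marker count required. Of 7151 B-lineage cells, 552 had a stage margin under 0.1. Each Leiden cluster took the most frequent gated class of its cells, and 86.28% of the assigned cells were in the class of their cluster. Lineage scores of 1531 cells lay within 0.05 of a gate. Counts were summed per class and mouse (at least 10 cells) and tested with the edgeR 4.0.16 quasi-likelihood test (TMM, filterByExpr, R 4.3.3), with Benjamini-Hochberg adjustment over all genes of a class at 0.05. The SE was taken as the size of the log2 fold change over the square root of F. Class pairs were tested over mice by exact sign-flip permutation on log2(CPM + 1). The procedures were tested on simulated data. DESeq2 1.42.0 and the other alternatives are given in the closing section. Mice are the replicates, 3 per strain. The members and lists were chosen with earlier results of these data known. Pathway genes were named where called in at least 2 classes of a comparison or among the 3 of smallest adjusted p, and for each member the 3 genes of highest Pearson's r across classes. Members were given per mouse where called and in their highest class. Promoter windows came from RefSeq, which matched 9 of 10 members.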

Additional observations from a re-analysis of the deposited data

Results flagged for a closer look

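The strain difference of *Ltb* was itself compared between classes in edgeR fits over both classes with each mouse as a block. They were added after the data were seen, for 5 pairs of classes with opposite *Ltb* calls, and 4 of 5 such differences passed. Since the calls were already opposite, a pass largely restates them. The adjusted p covers the genes of a fit, not the choice of pairs. Over all genes, the fits with stem or early progenitor-like cells called 33 of 5512 (mature B-like), 8 of 4782 (NK cell-like), 67 of 6433 (plasmacytoid dendritic-like), and 16 of 5449 (small pre-B-like). The fit of classical monocyte-like with mature B-like cells called 122 of 8300. For NZB against NZW, the log2 fold change in stem or early progenitor-like cells minus that in NK cell-like cells was -2.45 (SE 0.402, adjusted p = 0.000581). That difference did not pass at 2000 UMIs (adjusted p = 0.175), with doublets kept (0.481), with the stricter gate (0.678), or with free RNA subtracted (0.0529). Against plasmacytoid dendritic-like cells it was -2.38 (SE 0.437, adjusted p = 0.000447), and against small pre-B-like cells -3.37 (SE 0.456, adjusted p = 4.14e-10), the last becoming -0.38 (adjusted p = 0.957) with classes from clusters. The plasmacytoid dendritic-like value did not pass at 2000 UMIs (adjusted p = 0.268) or with the stricter gate (0.147). Against mature B-like cells the difference, -2.35 (SE 0.524, adjusted p = 0.0856), did not pass. It passed at 2000 UMIs (-3.24), at 500 UMIs (-2.69), with classes from clusters (-2.26), and without NZB mouse 2 (-3.36), NZB mouse 3 (-1.77), or NZW mouse 1 (-2.63), with adjusted p up to 0.0483. For NZBWF1 against NZB, the value in classical monocyte-like cells minus that in mature B-like cells was 1.21 (SE 0.201, adjusted p = 0.000135), and among cells with at least 2000 UMIs it was 0.58 (adjusted p = 0.782).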

How the results depend on the processing

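Of the values under the alternatives run, 193 of 206 for class pairs, 104 of 140 for counts of calls, 345 of 452 for single members in a class, and 65 of 79 for differences between classes kept their direction and their side of the threshold (counts: within 1.5 times). Member calls per class for NZB against NZW were 9, and became 14 with doublets kept, 14 with no filter beyond 1 count, and 5 to 12 without each mouse in turn. For NZBWF1 against NZB they were 7, and became 3 by DESeq2, 1 at 2000 UMIs per cell, 4 with free RNA subtracted, 12 with no filter, 4 with the stricter gate, and 3 to 6 without each mouse. NZBWF1 against NZW had 2, then 0 by DESeq2, 1 at 2000 UMIs, with doublets kept, or with the stricter gate, and 0 to 3 without each mouse. Against the parental mean there was 1, then 0 at 2000 UMIs, 2 at 500 UMIs, and 1 to 2 without each mouse. The share of all genes called per class for NZB against NZW was 8.44%, with 8.44% with doublets kept, 3.84% with no filter, and 5.34% to 9.09% without each mouse. For NZBWF1 against NZB it was 3.58%, with 2.71% by DESeq2, 1.77% at 2000 UMIs, 3.21% with free RNA subtracted, 1.68% with no filter, 3.8% with the stricter gate, and 1.83% to 3.5% without each mouse. For NZBWF1 against NZW it was 1.18%, with 0.748% by DESeq2, 1.28% at 2000 UMIs, 1.13% with doublets kept, 1.04% with the stricter gate, and 0.713% to 1.24% without each mouse. Against the parental mean it was 0.586%, with 0.294% at 2000 UMIs, 0.514% at 500 UMIs, and 0.333% to 0.708% without each mouse. In all kept cells summed, NZBWF1 against NZB had 3 calls, 1 at 2000 UMIs, and 0 to 4 without each mouse, NZBWF1 against NZW 0, 1 by DESeq2, and 0 to 1 without each mouse, the parental comparison 0, 1 by DESeq2, and 0 to 1 without each mouse, and NZB against NZW 2 to 4 without each mouse. Over all genes of the sum, NZBWF1 against NZB had 10.8% called, 7.59% at 2000 UMIs, and 4.55% to 11.2% without each mouse, NZBWF1 against NZW 2.13%, 3.18% by DESeq2, and 1.07% to 2.35% without each mouse, the parental comparison 0.954%, 2.1% by DESeq2, and 0.366% to 2.78% without each mouse, and NZB against NZW 18.7% and 12.3% to 21.3% without each mouse. Of the class pairs, *Tnfrsf13b* in mature B-like against small pre-B-like cells was 0.56 with doublets kept, 0.50 with the stricter gate, and 0.49 to 0.76 without each mouse. The same pair for *Cd40* was 1.66 at 2000 UMIs and for *Lta* 2.84 at 500 UMIs, where it passed, and 2.04 to 3.16 without each mouse. *Tnfsf13b* in mature against immature neutrophil-like cells was -2.17 at 2000 UMIs, no longer past the threshold. *Ltb* in small pre-B-like cells reversed with classes from clusters, to -0.27 for NZB against NZW and 0.00952 for NZBWF1 against NZB. The cause of these changes was not tested. The main fits did not pair mice by replicate number. Correlations of same-numbered mice, as deviations from strain means, ran from -0.414 to 0.397. All pairs were over 0.1 for 7 of 51 combinations of a number and a class or the sum. That held for all 3 numbers in 0 of 16 classes and not in the sum. In the sum the correlations were 0.2 to 0.222 for number 1, 0.136 to 0.294 for number 2, and -0.062 to 0.0547 for number 3. In mature neutrophil-like cells they were 0.266 to 0.381, 0.213 to 0.295, and 0.00119 to 0.0633. In each strain mouse 1 had the largest share of mature B-like cells and mouse 2 the smallest. What same-numbered mice share was not tested. With the replicate number as a block, member calls per class were 10, 7, 2, and 2 in the 4 comparisons (over all genes 8.97%, 4.2%, 1.32%, and 0.741%), and in the sum 1 against NZW (over all genes 4.92%) and 2 against the parental mean (4.11%). The 2000 UMI limit gave no value for *Tnfsf13b* in mature neutrophil-like cells, *Ltb* in small pre-B-like cells, or the pairs of nonclassical and classical monocyte-like cells, and DESeq2 gave no adjusted p for *Ltb* in small pre-B-like cells in NZBWF1 against NZB. *Tnfsf13* and *Lta*, with 7 and 52 UMIs, could not be tested between strains.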

Other observations

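Barcodes that did not pass the quality limits had higher levels of some members than kept barcodes. *Tnfrsf13c* had 159 ± 62.6 against 29 ± 17 CPM, *Ltb* 588 ± 160.1 against 150.1 ± 34.6 CPM, *Cd40* 36.4 ± 17.3 against 7.2 ± 2.96 CPM, *Tnfrsf13b* 135 ± 59.1 against 67.7 ± 12.2 CPM, and *Lta* 1.88 ± 0.702 against 0.466 ± 0.148 CPM in discarded against kept barcodes, each higher in 9 of 9 mice. *Tnfrsf17*, the plasma cell receptor, went the other way, with 0.16 ± 0.207 against 3.93 ± 3.28 CPM, higher in discarded barcodes in 0 of 9 mice. *Tnf* (8.02 ± 2.52 against 7.63 ± 1.73 CPM) and *Ltbr* (12.9 ± 3.84 against 14.5 ± 1.63 CPM) were each higher in 3 of 9. *Tnfsf13b*, highest in neutrophil-like cells, had 21.8 ± 9.73 against 19.7 ± 7.17 CPM and was higher in discarded barcodes in 7 of 9. *Tnfsf13* had 0.0792 ± 0.157 against 0.0601 ± 0.0717 CPM and was higher in 2 of 9. These values were not tested, and the classes of the discarded barcodes are not known.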
